A study of Drosophila melanogaster with 8 samples.

Results

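The cuticle protein genes described here are the Drosophila melanogaster genes whose symbol begins with Cpr or Lcp followed by a digit, 87 of the 17559 gene IDs in the deposited count tables. They comprise 70 Cpr genes and 17 Lcp genes, among which Lcp1Psi and Lcp65APsi carry the names of pseudogenes. RNA-seq was made from whole wing discs of larvae raised at 29 °C and taken in the wandering stage, some 5 days after eggs were laid. The control group (wt) was a cross of the driver line 1151 to w1118, and the CRISPR group, 1151>AntpCRISPR, carried the same driver with CRISPR directed at Antp, so that the driver is shared and the CRISPR transgene is absent from the control. The design addresses the role of the Hox transcription factor Antp in the adult muscle precursors, the progenitor cells that lie on the disc epithelium, and a whole disc holds both. Each genotype had 4 libraries, and the labels say that the submitters' analysis took wt 2, wt 3, CRISPR 1 and CRISPR 2 (the used libraries) and left out the other 4.

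Insect cuticle is built from chitin fibres and proteins that bind them, and the Cpr family (cuticular proteins with the chitin-binding Rebers and Riddiford consensus) supplies most of those proteins. The Lcp genes, larval cuticle proteins, are members of the same family that were first described from the larval integument. Epidermal cells switch cuticle genes on and off as pulses of the steroid ecdysone begin and end each molt, and the wing disc, an epidermal sac, secretes its own cuticle around pupariation.

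Depth lay between 35076546 gene reads (CRISPR 1) and 47980221 (wt 2). Levels are CPM, read counts scaled to a common library size with TMM factors, on which scale a count of 0, taken as up to 3 reads, allows a level of up to 0.0603 CPM in wt 2 to 0.0936 CPM in CRISPR 1, for counting error only. Marker genes of the labelled tissue were read in every library. The 13 wing disc epithelium markers summed to 2079 to 2415 CPM and 9 markers of adult muscle precursors to 699 to 787 CPM. The largest parts of the muscle precursor sum were vg (238 to 259 CPM), which also stands in the epithelium list, and how (159 to 230 CPM). Another of its markers, twi, was at 17.6 to 25.7 CPM. Some libraries stood apart by other tissues: 14 midgut markers summed to 2145, 2165 and 1195 CPM in wt 2, wt 3 and CRISPR 3, with at most 9.32 CPM elsewhere, and 11 sarcomere markers summed to 1184 CPM in CRISPR 2 against 126 to 391 CPM elsewhere. Of 28 pairs of libraries, wt 2 with wt 3 differed least (robust SD of the log2 ratio 0.0592, against 0.148 to 0.50 in the other 27), with a chi-square per degree of freedom of 7.26 over all genes and 1.5 per gene over the 45 cuticle protein genes with at least 10 reads in the pair. The labels do not say that libraries came from separate animals, so p-values measure the spread between libraries, which may be technical. In whole discs, fewer cells of a type and less RNA per cell cannot be told apart. Antp itself was read in all libraries, at 121 to 195 CPM in wt and 145 to 210 CPM in CRISPR, and since a gene can be disrupted without loss of its RNA this level does not check the genotype labels.

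Late larval discs expressed a small part of the family. Of the 87 genes, 26 had a mean of at least 1 CPM over the 8 libraries (29.9%, against 45% of all gene IDs), and these were 20 Cpr and 6 Lcp genes. Only 13 reached 1 CPM in every library, namely Cpr12A, Cpr49Ac, Cpr49Ag, Cpr49Ah, Cpr51A, Cpr64Aa, Cpr65Ec, Cpr66D, Cpr72Ea, Cpr78E, Lcp1, Lcp2 and Lcp4. At the other end, 40 genes had a mean under 0.1 CPM, 23 had between 1 and 10 reads over all libraries, and 12 had no read in any library. Those 12 were Cpr5C, Cpr47Ea, Cpr49Ad, Cpr57A, Cpr65Ax1, Cpr65Ax2, Cpr65Eb, Cpr76Ba, Cpr76Bb, Lcp65Ab1, Lcp65Ab2 and Lcp65APsi. Lcp65Ab1 and Lcp65Ab2, like Cpr65Ax1 and Cpr65Ax2, are duplicated copies, and reads without a unique place were kept out of the gene counts, so a count of 0 for these 4 genes does not show that their RNA was missing. The filter on low counts was passed by 38 cuticle protein genes and not by 49. Those that passed had a median level of 2.13 CPM, against 30.1 CPM over all 9255 genes that passed.

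**Figure D1:**
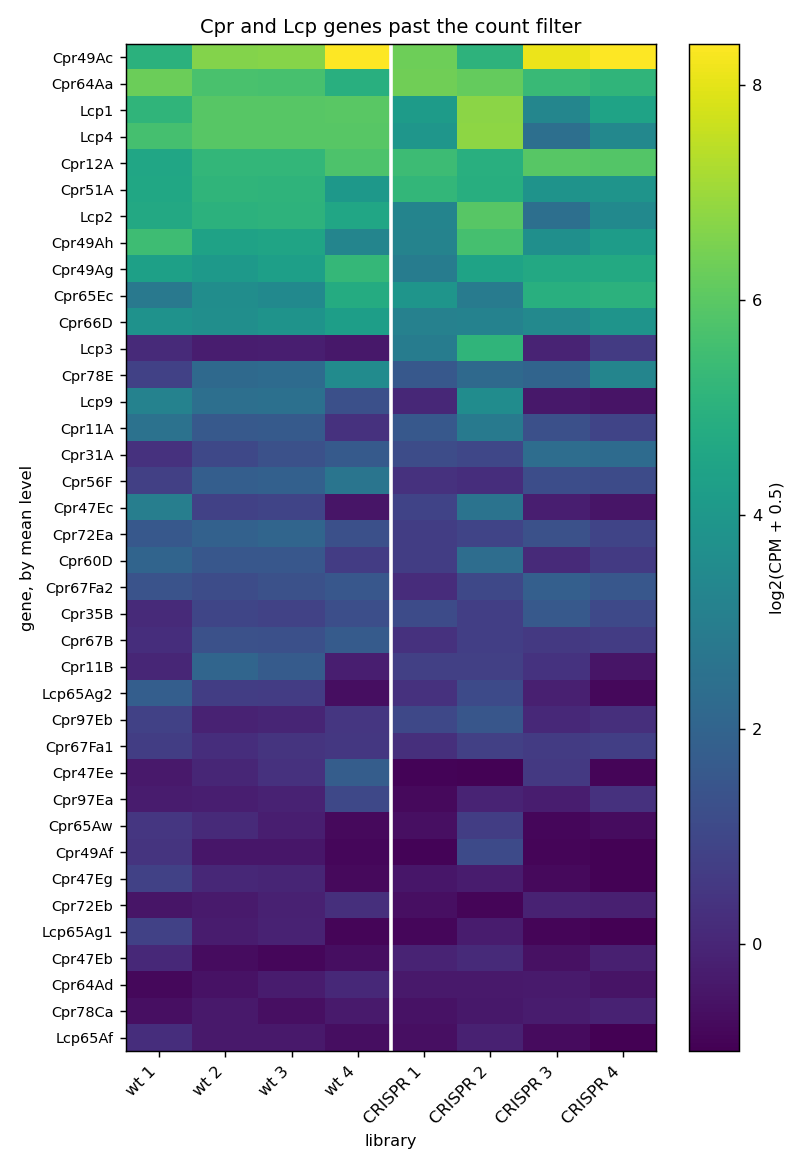
Levels, as log2(CPM + 0.5), of the 38 cuticle protein genes past the count filter (rows, ordered by mean level) in the 8 libraries (columns, wt left of the white line). The top row, Cpr49Ac, was brightest in wt 4, CRISPR 3 and CRISPR 4, and Lcp1, Lcp2 and Lcp4 were brightest in CRISPR 2.

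The RNA was concentrated in few genes. Cpr49Ac, Cpr64Aa and Lcp1 together held 50.5% of the summed mean level, and the 12 most abundant genes held 92.6%. The sum over all 87 genes was 398, 478, 482 and 716 CPM in wt 1 to wt 4, and it came to 348, 617, 517 and 596 CPM in CRISPR 1 to CRISPR 4. The genotypes overlapped in this sum, but its makeup differed between libraries: Cpr49Ac supplied from 5.42% of it (CRISPR 2) to 54.9% (CRISPR 4), and Lcp1 to Lcp4 together from 3.80% (CRISPR 3) to 51.0% (CRISPR 2).

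Cpr49Ac (FBgn0033725, 2R 12386666 to 12390057, plus strand, dm6 coordinates here and below) had the highest mean level, 160 CPM or 75.7 CPM per kb of exon. It was at 31.2, 101, 101 and 334 CPM in wt 1 to wt 4, and at 79.3, 33.5, 275 and 327 CPM in CRISPR 1 to CRISPR 4. The 3 highest libraries were wt 4, CRISPR 3 and CRISPR 4, and the lowest library of each genotype, wt 1 and CRISPR 2, lay close to each other.

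Cpr64Aa (FBgn0035510, 3L 4207838 to 4209178), with 53.6 CPM per kb, was among the steadier of the abundant genes and ran the other way. It was at 77.3, 51.0, 50.1 and 29.6 CPM in wt 1 to wt 4 and at 80.5, 71.6, 40.4 and 34.7 CPM in CRISPR 1 to CRISPR 4, lowest in the 3 libraries where Cpr49Ac was highest. Cpr12A (FBgn0030494, X 13543643 to 13544907) was at 23.0, 36.9, 36.2 and 54.1 CPM in wt and at 42.7, 29.4, 61.5 and 57.5 CPM in CRISPR. Its top 3 libraries were those of Cpr49Ac, over a range of 2.67-fold. Cpr51A (FBgn0033942, 2R 14512559 to 14515211) was at 23.4, 34.8, 33.8 and 15.7 CPM in wt and at 36.5, 28.9, 13.7 and 14.1 CPM in CRISPR. Here wt 4, CRISPR 3 and CRISPR 4 were the lowest, and the genotypes overlapped for each of these genes.

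Cpr65Ec (FBgn0035737, 3L 7093204 to 7093841) was at 6.41, 11.7, 10.6 and 26.6 CPM in wt 1 to wt 4 and at 14.2, 7.08, 29.7 and 32.5 CPM in CRISPR 1 to CRISPR 4. Again wt 4, CRISPR 3 and CRISPR 4 were the highest. Cpr66D (FBgn0052029, 3L 8640439 to 8643584), known as a component of the corneal lens of the eye, was at 13.4, 12, 13.5 and 18.5 CPM in wt and at 8.33, 8.36, 10.2 and 14.1 CPM in CRISPR. It was the least variable gene with a mean of at least 10 CPM, and CRISPR 4 lay inside the wt range. Cpr78E (FBgn0037114, 3L 21666452 to 21666980) was at 1.25, 4.08, 4.41 and 11.1 CPM in wt and at 2.47, 4.09, 3.53 and 9.15 CPM in CRISPR, with wt 4 and CRISPR 4 highest.

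The narrowest ranges belonged to Cpr78Ca, Cpr67Fa1, Cpr64Ad, Cpr47Eb and Cpr66D. For the first 4 of these the range is held down by the 0.5 CPM added before the ratio was taken, since their mean levels were 0.262, 0.957, 0.276 and 0.310 CPM. Cpr67Fa1 (FBgn0036108, 3L 10889990 to 10890700) was at 0.663 to 1.15 CPM in wt and 0.687 to 1.19 CPM in CRISPR. Cpr78Ca stayed between 0.149 and 0.437 CPM, and Cpr64Ad between 0.0748 and 0.554 CPM. Cpr47Eb (FBgn0033598, 2R 11255167 to 11255983) was at 0.548, 0.121, 0.0658 and 0.133 CPM in wt and at 0.468, 0.584, 0.172 and 0.391 CPM in CRISPR, with wt 1 inside the CRISPR range.

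Lcp1, Lcp2, Lcp3 and Lcp4, the major proteins of larval cuticle, lie together with Lcp1Psi within 8.38 kb on 2R (8430115 to 8438495). Lcp1 (FBgn0002531) was at 35.2, 61.5, 60.9 and 63.0 CPM in wt 1 to wt 4 and at 17.1, 109, 9.43 and 21.5 CPM in CRISPR 1 to CRISPR 4. Lcp2 (FBgn0002533) was at 24.6, 32.3, 32.8 and 23.0 CPM in wt and at 8.99, 61.3, 4.95 and 10.4 CPM in CRISPR. Lcp4 (FBgn0002535), the highest of them per kb at 58.6 CPM, was at 49.2, 60.9, 60.6 and 61.2 CPM in wt and at 14.9, 110, 4.82 and 9.999 CPM in CRISPR. The same order held for all 3 genes: CRISPR 2 was above every wt library, and CRISPR 1, CRISPR 3 and CRISPR 4 were below every wt library. CRISPR 2 was also the library with the most sarcomere RNA, and CRISPR 3 and CRISPR 4 had the least. The 11 sarcomere markers summed to 388, 383, 391 and 232 CPM in wt 1 to wt 4. In CRISPR 1 to CRISPR 4 they summed to 268, 1184, 131 and 126 CPM, with CRISPR 1 inside the wt range. The part of sarcomere tissue in the Lcp values was not tested.

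Lcp3 (FBgn0002534, 2R 8435310 to 8436095) lies 0.524 kb from Lcp2 and 1.55 kb from Lcp4. It differed from these neighbours in its CRISPR levels relative to wt. It was at 0.573, 0.342, 0.373 and 0.266 CPM in wt 1 to wt 4 (12 to 23 reads) and at 7.27, 34.9, 0.452 and 1.03 CPM in CRISPR 1 to CRISPR 4 (233, 1375, 21 and 45 reads). CRISPR 1 and CRISPR 2 were far above wt, CRISPR 4 was above it, and CRISPR 3 lay inside the wt range. Among the CRISPR libraries Lcp3 kept the order of Lcp4, highest in CRISPR 2, then in CRISPR 1, CRISPR 4 and CRISPR 3. Against Lcp4 in the same library, Lcp3 gave 0.0117, 0.00561, 0.00616 and 0.00435 reads per Lcp4 read in wt 1 to wt 4. In CRISPR 1 to CRISPR 4 it gave 0.487, 0.318, 0.0938 and 0.103, so that the genotypes did not overlap in this ratio. In CRISPR 3 the ratio lay above wt through Lcp4, which was at 4.82 CPM there, far below wt. Lcp4 was also below wt in CRISPR 1 and CRISPR 4, at 14.9 and 9.999 CPM against 49.2 to 61.2 CPM. In those libraries the ratio was raised by both genes. The ratio was noticed after the values were seen and is given without a test. How many other gene pairs separate the genotypes in this way was not counted. Lcp1 and Lcp2, for comparison, kept a ratio of 1.44 to 2.74 reads in wt and 1.78 to 2.07 in CRISPR. The Lcp genes are close paralogs, and how the counting split reads between them is not known.

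**Figure D2:**
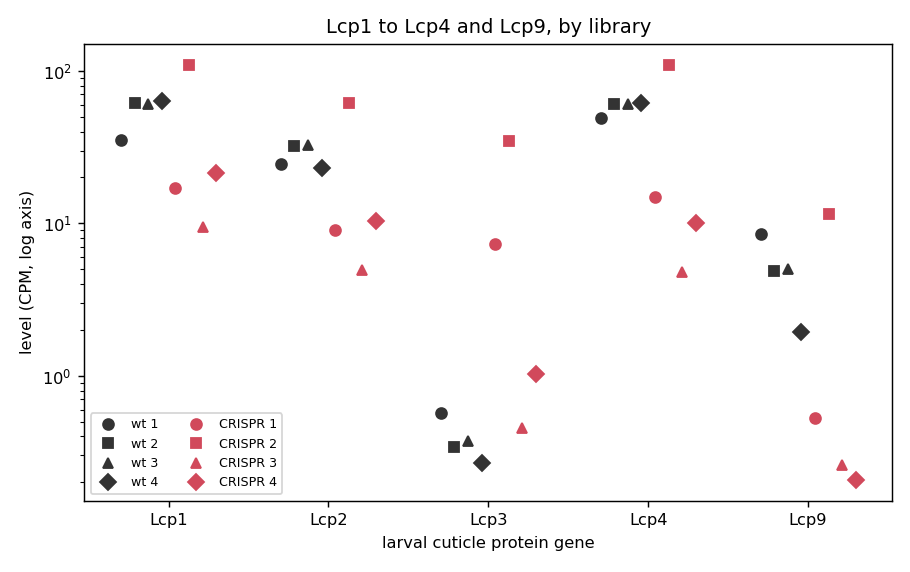
Level (CPM, log axis) of Lcp1, Lcp2, Lcp3, Lcp4 and Lcp9 in each wt library (black) and each CRISPR library (red), with 1 marker per library. For Lcp1, Lcp2 and Lcp4 the red square, CRISPR 2, lies above the wt libraries and the other red markers below them, while for Lcp3 the red markers of CRISPR 1 and CRISPR 2 (7.27 and 34.9 CPM) lie far above wt.

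Lcp9 (FBgn0025578, 2R 24779979 to 24780428), which lies apart from that cluster, resembled Lcp1, Lcp2 and Lcp4 in its order. It was at 8.47, 4.86, 5.05 and 1.95 CPM in wt and at 0.531, 11.5, 0.258 and 0.207 CPM in CRISPR, with CRISPR 2 above and the other CRISPR libraries below every wt library. Its exons overlap an antisense gene, asRNA:CR44067, that had no read. Cpr47Ec (FBgn0033600, 2R 11259106 to 11259976) was at 7.63, 1.25, 1.40 and 0.222 CPM in wt and at 1.37, 5.43, 0.366 and 0.230 CPM in CRISPR. Its high libraries were wt 1 and CRISPR 2, and its low ones wt 4, CRISPR 3 and CRISPR 4.

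Neighbouring genes differed widely in level. With genes less than 20 kb apart taken as 1 cluster, 65 of the 87 genes fell into 13 clusters and 22 stood alone. The largest cluster, 18 genes over 31.2 kb of 3L (6130386 to 6161589) with Lcp65Ag1, Lcp65Ag2 and Cpr65Au to Cpr65Az, had 1 gene with a mean of at least 1 CPM, Lcp65Ag2, at 0.0690 to 3.02 CPM, and 5 genes with no read. The Lcp1 to Lcp4 cluster had 4 of 5 genes at or above 1 CPM. In the cluster of 8 genes on 2R (12376626 to 12415170), Cpr49Ac, Cpr49Ag and Cpr49Ah exceeded 20 CPM on average and the other 5 averaged under 1 CPM, with Cpr49Af reaching 1.68 CPM in CRISPR 2. Cpr49Ag (FBgn0033730, 2R 12407793 to 12408523) was at 19.6, 15.9, 19.3 and 37.6 CPM in wt and at 7.15, 21.2, 24.9 and 25.3 CPM in CRISPR. Cpr49Ah (FBgn0033731, 2R 12413962 to 12415170), 5.44 kb away, was at 44.3, 20.7, 21.6 and 9.26 CPM in wt and at 8.58, 48.2, 12.4 and 17.6 CPM in CRISPR. Within that cluster, then, wt 4 was the highest wt library for Cpr49Ac and Cpr49Ag and the lowest for Cpr49Ah.

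Several cuticle protein genes ranged widely between libraries. Between the highest and the lowest library, after adding 0.5 CPM, 7 of the 38 genes past the filter ranged at least 8-fold (18.4%), against 1.65% of all 9255 genes past it. These were Cpr49Ac (10.6-fold), Lcp1 (11.0-fold), Lcp2 (11.3-fold), Lcp3 (46.3-fold), Lcp4 (20.7-fold), Lcp9 (16.9-fold) and Cpr47Ec (11.3-fold). The median range was 3.79-fold for the cuticle protein genes and 1.58-fold for all genes. Among genes with a mean of at least 10 CPM, a limit chosen after the values were seen, 4 of 11 cuticle protein genes (36.4%) and 1.39% of all such genes ranged at least 8-fold. With an offset of 0.1 CPM in place of 0.5 CPM, 15 of the 38 did, against 3.65% of all genes. Only 4 of the 38 ranged under 2-fold, against 74.2% of all genes. Left out singly, CRISPR 2 and CRISPR 3 each lowered the count from 7 to 5.

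The labels give 1 age for all libraries, but genes of the ecdysone response differed between them. Hr4, an ecdysone-induced nuclear receptor, was at 2.52, 39.3, 39.2 and 133 CPM in wt 1 to wt 4 and at 12.4, 12.4, 174 and 142 CPM in CRISPR 1 to CRISPR 4. The ecdysone-inducible ImpE2, chosen after its values were seen, was at 324, 1340, 1346 and 4064 CPM in wt and at 743, 433, 4312 and 4620 CPM in CRISPR. In both, wt 4, CRISPR 3 and CRISPR 4 were highest and wt 1 lowest. Blimp-1, an ecdysone-induced repressor, and Hr3, another ecdysone-induced receptor, both also chosen after their values were seen, had the same 3 libraries on top, from 148 to 202 CPM and from 8.22 to 16.7 CPM. The prepupal regulator ftz-f1 was lowest there, at 9.81 CPM in wt 4, 16.1 CPM in CRISPR 3 and 11.7 CPM in CRISPR 4 against 42.7 to 73.0 CPM elsewhere. Of the 32 listed ecdysone response genes past the filter, those 3 libraries were highest for 7, Hr4 included, and lowest for 4. The shares over all genes were 12.5% and 12%. The receptor gene EcR was at 164 to 174 CPM in those libraries and at 212 to 327 CPM elsewhere. Sgs3 was at 33.7 CPM in wt 4 but at 1.23 CPM in CRISPR 3. The early genes Eip74EF (99.7 to 183 CPM) and Eip75B (271 to 435 CPM) varied less, and ImpE1 ran from 88.6 to 564 CPM. For Eip75B the genotypes did not overlap, with 271 to 301 CPM in wt and 332 to 435 CPM in CRISPR. Over the 8 libraries its edgeR adjusted p was 0.459 and its DESeq2 adjusted p 0.0410, and 2.87% of all genes did not overlap. The prepupal cuticle gene Edg84A had no read in any library, and Edg78E stayed between 0.187 and 1.10 CPM.

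Against that order, which was also chosen after the values were seen, cuticle protein genes fell on both sides. The same 3 libraries as for Hr4 were the highest for 7 of the 38 genes, Cpr12A, Cpr31A, Cpr49Ac, Cpr49Ag, Cpr65Ec, Cpr67Fa2 and Cpr78Ca, a pattern held by 12.5% of all genes past the filter. Those 3 libraries were the lowest for 10 genes, Cpr11A, Cpr47Ec, Cpr47Eg, Cpr51A, Cpr60D, Cpr64Aa, Cpr65Aw, Lcp65Af, Lcp65Ag1 and Lcp65Ag2, against 12% of all genes. The 2 highest libraries were wt 1 and CRISPR 2 for 10 genes, against 6.69% of all genes. These last were Cpr11A, Cpr47Eb, Cpr47Ec, Cpr49Af, Cpr49Ah, Cpr60D, Cpr65Aw, Lcp65Af, Lcp65Ag2 and Lcp9. CRISPR 2 was the highest library for 13 of the 38 genes (8.77% of all genes), wt 4 for 10 (13.3%), wt 1 for 5 (16.6%) and CRISPR 3 for 4 (8.11%). CRISPR 1 and CRISPR 4 were highest for 2 each (18.6% and 21% of all genes), and wt 2 and wt 3 for 1 each (6.05% and 7.61%). Transcript length moved with 2 of these libraries: the deviation of a gene from its median library had a Spearman's rho with exon length of -0.40 in wt 4 and -0.48 in CRISPR 4 across 9057 genes, against -0.073 to 0.26 elsewhere. In wt 4 and CRISPR 4, the 1301 genes with 553 to 1065 bases of exon, lengths near those of most cuticle protein genes, had a median log2 deviation of 0.15 and 0.21. The median over the cuticle protein genes themselves was 0.031 in wt 4 and -0.13 in CRISPR 4. Genes are not independent replicates. Cpr49Ac, with 2117 bases of exon, lies outside those lengths, and the part of transcript length in its levels was not tested.

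**Figure D3:**
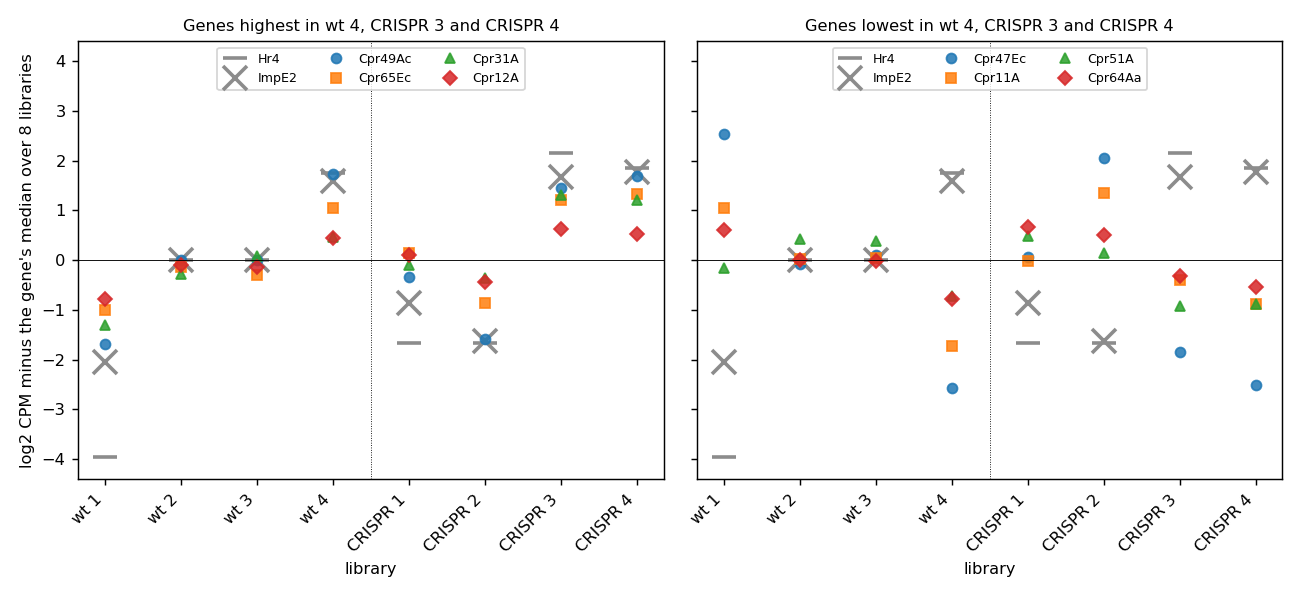
Log2 level of each gene minus its own median over the 8 libraries, for the ecdysone response genes Hr4 (grey bars) and ImpE2 (grey crosses) and for 4 cuticle protein genes in each panel (coloured). Cpr49Ac, Cpr65Ec, Cpr31A and Cpr12A (left) were highest in wt 4, CRISPR 3 and CRISPR 4, where Cpr47Ec, Cpr11A, Cpr51A and Cpr64Aa (right) were lowest.

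Markers of other larval tissues moved between libraries as well. The midgut markers were high in wt 2, wt 3 and CRISPR 3, while Cpr49Ac was at 101, 101 and 275 CPM in those libraries and at 334 and 327 CPM in wt 4 and CRISPR 4, where the 14 midgut markers summed to 1.37 and 0.828 CPM. Fat body markers (8 genes) summed to 523 and 534 CPM in wt 2 and wt 3 and to 21.0 to 73.5 CPM elsewhere. Tracheal markers (10 genes) summed to 2416 to 3288 CPM, lowest in wt 4 and CRISPR 4. Most of that sum came from uif (328 to 1067 CPM), vvl (504 to 743 CPM), pio (383 to 691 CPM) and verm (339 to 561 CPM). Of these, pio and verm also stand in the lists of cuticle formation genes below, as do the tracheal markers serp, Gasp and Cht2. The marker trh was at 58.9 to 95.9 CPM, also lowest in wt 4 and CRISPR 4. Hemocyte markers summed to 508 to 871 CPM and salivary gland markers to 10.3 to 127 CPM. Most of the hemocyte sum was Ppn, at 453 to 787 CPM. The hemocyte marker Hml did not follow that sum, with its lowest level in CRISPR 1 (5.71 CPM) and its highest in CRISPR 2 (20.9 CPM). No list had a marker at 0 in all libraries, and 11 of the 14 midgut markers were at 0 in some. No list here marks larval epidermis, and the part of any of these tissues in the cuticle protein RNA was not tested.

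The comparison of genotypes over all 8 libraries asked which cuticle protein genes differ when Antp is targeted. None of the 38 tested genes passed an adjusted p of 0.05 in edgeR's quasi-likelihood test, against 0.184% of the 9255 genes tested (0.0648% higher and 0.119% lower in CRISPR), and 4 had an unadjusted p under 0.05 (4.3% of all genes), namely Lcp3, Cpr72Ea, Cpr56F and Cpr66D. DESeq2 called 1, Lcp3 (adjusted p = 0.00918), against 0.922% of all genes. For Lcp1, Lcp2 and Lcp4 it gave neither an unadjusted nor an adjusted p. The genotypes overlapped for all 38, whereas 2.87% of all genes did not overlap (1.7% higher and 1.18% lower in CRISPR). Estimates were above 0 for 13 genes and below 0 for 25, with a median log2 change of -0.31 against 0.023 over all genes.

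Lcp3 had the largest estimate, with a mean of 0.388 ± 0.131 CPM over the wt libraries and of 10.9 ± 16.3 CPM over the CRISPR libraries (SD, n = 4 each). Its log2 change was 4.81 (SE 1.27, edgeR adjusted p = 0.485), and without CRISPR 2 it was 2.90. Cpr72Ea (FBgn0036617, 3L 16362603 to 16363750) was at 2.47, 3.24, 3.64 and 1.95 CPM in wt and at 1.12, 1.40, 2.0 and 1.40 CPM in CRISPR, a log2 change of -0.93 (SE 0.29, edgeR adjusted p = 0.772). Cpr56F (FBgn0034499, 2R 20288371 to 20291945) was at 1.20, 2.97, 3.18 and 5.78 CPM in wt and at 0.749, 0.660, 1.85 and 1.72 CPM in CRISPR, a log2 change of -1.39 (SE 0.52). Cpr67B (FBgn0035985, 3L 9404797 to 9406174) was at 0.673, 1.99, 1.98 and 2.72 CPM in wt and at 0.780, 1.17, 0.969 and 1.08 CPM in CRISPR, a log2 change of -0.88 (SE 0.40). In these 3 genes wt libraries were mostly the higher ones, but wt 4 for Cpr72Ea and wt 1 for Cpr56F lay inside the CRISPR range, and wt 1 was the lowest of all libraries for Cpr67B.

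Lcp1, Lcp2, Lcp4 and Lcp9 gave log2 changes of -0.49, -0.40, -0.73 and -0.71 over the 8 libraries, with SEs of 0.67 to 1.17, and moved most with CRISPR 2. Without CRISPR 2 the values were -1.78 for Lcp1, -1.79 for Lcp2, -2.55 for Lcp4 and -3.95 for Lcp9 (edgeR adjusted p = 0.187, 0.124, 0.103 and 0.124), none of them past the threshold. Cpr49Ac gave 0.33 (SE 0.80) and Cpr64Aa 0.13 (SE 0.34), each smaller than its SE.

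Among the 4 libraries that the submitters used, wt 2 and wt 3 against CRISPR 1 and CRISPR 2, edgeR called 3 of 40 tested cuticle protein genes (7.5%), against 2.72% of 9711 genes. Higher in CRISPR was 1 gene (Cpr64Aa, against 0.381% of all genes), and lower were 2 (Cpr56F and Cpr47Ee, against 2.34%). An unadjusted p under 0.05 was reached by 11 genes, against 22.4% of all genes. The 2 genotypes did not overlap for 14 of the 40 genes (35%), 4 higher and 10 lower in CRISPR, against 58.9% of all genes. The median log2 change was -0.039, against 0.0040 over all genes.

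Cpr56F fell 4.48-fold, from 3.08 ± 0.146 to 0.705 ± 0.0628 CPM (SD, n = 2 each here and below; log2 change -2.16, SE 0.25, edgeR adjusted p = 0.0322). Among the libraries left out of that fit it was at 1.20 and 5.78 CPM in wt and at 1.85 and 1.72 CPM in CRISPR, where the genotypes overlapped. Cpr64Aa rose 1.46-fold, from 50.6 ± 0.589 to 76.1 ± 6.31 CPM (log2 change 0.55, SE 0.069, edgeR adjusted p = 0.0384), while wt 1, at 77.3 CPM, lay between CRISPR 1 and CRISPR 2. Cpr47Ee (FBgn0033602, 2R 11265126 to 11266856) was at 0.274, 0.502, 0.768 and 2.88 CPM in wt 1 to wt 4 and at 0.0312, 0.0254, 0.990 and 0.0460 CPM in CRISPR 1 to CRISPR 4, from 1, 1, 46 and 2 reads in the latter. It fell among the used libraries from 60 reads in wt to 2 in CRISPR, a ratio of 22.5 scaled to depth (exact 95% interval for counting error only, 5.96 to 190; edgeR adjusted p = 0.0464). CRISPR 3 had it at a level inside the wt range.

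These 3 calls rest on wt 2 and wt 3 together, the pair that differed least of all pairs. Without wt 2 no cuticle protein gene was called (edgeR adjusted p = 0.501 for Cpr64Aa, 0.497 for Cpr56F and 0.452 for Cpr47Ee), and none without wt 3 (0.566, 0.566 and 0.690), with the spread taken from all 8 libraries (0.676, 0.340 and 0.514) or with wt 1 and wt 4 in place of wt 2 and wt 3 (0.999 for each). Of all genes tested, 0.392%, 0.422%, 0.0515% and 0% were called in those 4 fits. The estimates there kept their direction and most of their size while their SEs grew. Cpr64Aa gave log2 changes of 0.56, 0.54, 0.61 and 0.51 with SEs of 0.15, 0.15, 0.38 and 0.43. Cpr56F gave -2.21, -2.12, -2.10 and -2.31 with SEs of 0.58 to 0.83, and Cpr47Ee -4.66, -4.06, -4.34 and -5.67 with SEs of 1.15 to 1.84. Without CRISPR 1 or CRISPR 2 the spread came from wt 2 and wt 3 alone, and 28 of 43 and 27 of 41 cuticle protein genes were called, against 48.9% and 56.4% of all genes.

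Lcp3 had the largest estimate among the used libraries and did not pass in edgeR, at 0.357 ± 0.0222 CPM in wt against 21.1 ± 19.5 CPM in CRISPR (log2 change 5.86, SE 0.98, adjusted p = 0.0679). Cpr72Ea gave -1.48 (SE 0.26, adjusted p = 0.0714) and Cpr66D -0.65 (SE 0.13, adjusted p = 0.0845). DESeq2 called 8 of the 40 genes (20%, against 8.09% of all genes): the 3 above and Lcp3, Cpr72Ea, Cpr66D, Cpr11B and Cpr97Eb. Lcp1, Lcp2 and Lcp4, with CRISPR 1 far below and CRISPR 2 far above wt, gave log2 changes of 0.02, 0.10 and 0.02.

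**Figure D4:**
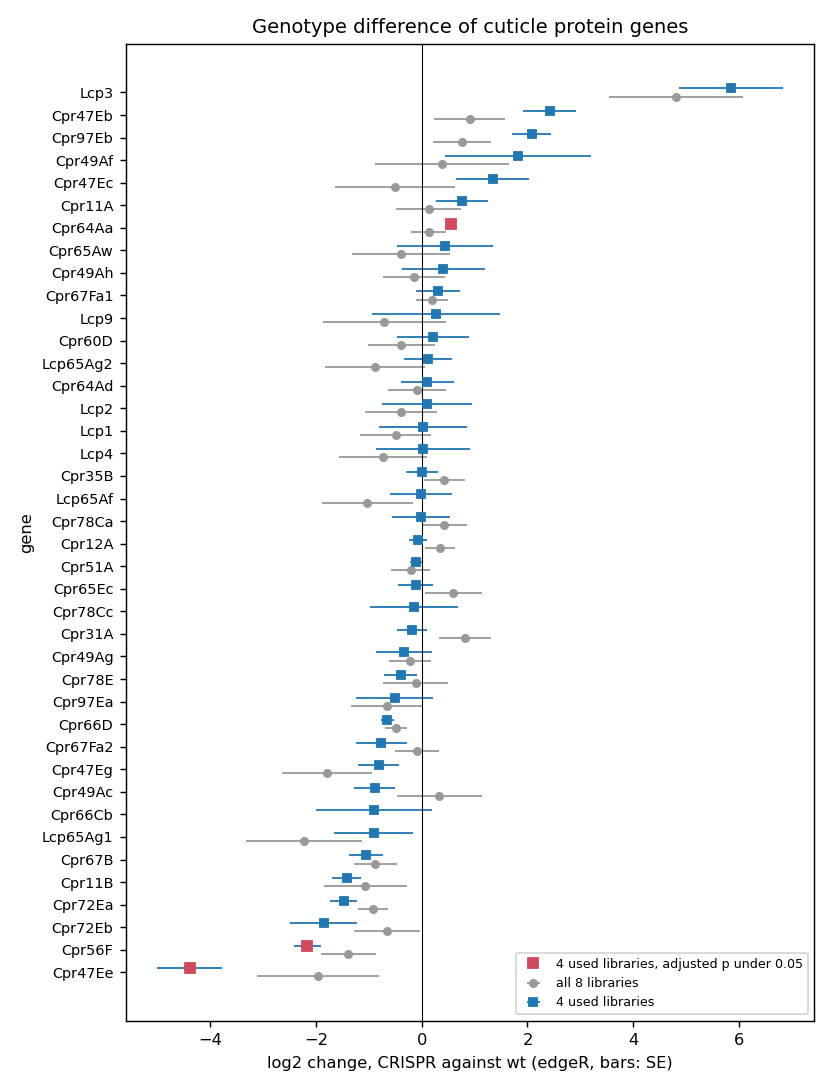
Log2 change, CRISPR against wt, with its SE, for the cuticle protein genes tested among the 4 used libraries (squares) and, where tested, over all 8 libraries (grey circles). Red squares mark the 3 called genes, Cpr64Aa, Cpr56F and Cpr47Ee, whose grey circles (0.13, -1.39 and -1.96) did not pass.

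Whether the genotype difference itself depended on use status was tested with an interaction term over the 8 libraries. No gene of the 44 tested passed in edgeR, nor did any of the 10094 genes (0%), and 7 had an unadjusted p under 0.05 (8.24% of all genes). DESeq2 called Lcp3 and Cpr97Eb, 2 of the 44 against 1.5% of all genes. The smallest edgeR adjusted p was 0.265, for Cpr97Eb (FBgn0039481, 3R 27089704 to 27091130, chosen after its values were seen), which was at 1.25, 0.422, 0.483 and 0.908 CPM in wt and at 1.53, 2.39, 0.560 and 0.713 CPM in CRISPR. It was above wt in the used CRISPR libraries and inside the wt range in the others. For Lcp3 the interaction estimate was -5.07 (SE 1.16, edgeR adjusted p = 0.300). Without wt 4 the edgeR test called 5 genes, Cpr31A, Cpr47Ec, Cpr49Ac, Cpr56F and Cpr64Aa, in a fit where wt 1 stood alone as the unused control. These were 5 of 46 cuticle protein genes, against 2.61% of all genes in that fit.

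Other genes of cuticle formation were listed with earlier results known, and edgeR called none of them over the 8 libraries or in the interaction. Over the 8 libraries these were 0 of 15 genes of other cuticle protein families, 0 of 27 chitin genes, 0 of 19 tanning genes, 0 of 11 zona pellucida proteins of the apical matrix and 0 of 32 ecdysone response genes, with 1, 2, 2, 0 and 2 at an unadjusted p under 0.05 and 0, 0, 1, 0 and 1 called by DESeq2. Of all genes in that fit, edgeR called 0.184%, 4.3% had an unadjusted p under 0.05 and DESeq2 called 0.922%. The median log2 changes of these lists, in the same order, were -0.25, -0.043, -0.37, -0.047 and -0.019, against 0.023 over all genes.

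Among the used libraries, edgeR called 1 of 17 genes of other cuticle families, the Tweedle family gene TwdlN, with 96 reads in wt 2 and wt 3 and 1 in CRISPR 1 and CRISPR 2 (edgeR adjusted p = 0.0384), and no read in wt 1 or wt 4. Of all genes tested in that fit, edgeR called 2.72% (0.381% higher and 2.34% lower in CRISPR). Of 27 chitin genes, 1 rose and 2 fell. The chitinase gene Cht7 rose from 105 ± 1.43 to 158 ± 8.88 CPM (log2 change 0.55, adjusted p = 0.0252). Cht5, a chitinase of the molting fluid, fell from 41.8 ± 1.64 to 19.8 ± 4.02 CPM (log2 change -1.12, adjusted p = 0.0393), and the chitinase-like Idgf3 fell from 15.4 ± 1.02 to 2.34 ± 0.531 CPM (log2 change -2.75, adjusted p = 0.0151). In wt 1 and wt 4, outside that fit, Cht7 was at 177 and 32.0 CPM, Cht5 at 23.1 and 62.7 CPM, and Idgf3 at 2.27 and 1.11 CPM. For each of the 3 genes wt 1 lay nearer to the used CRISPR libraries than to wt 2 and wt 3. Of the 20 tanning genes edgeR called none. Of 11 apical matrix genes, m (miniature) fell from 5.06 ± 0.640 to 1.52 ± 0.320 CPM (log2 change -1.78, adjusted p = 0.0483). Of 32 ecdysone response genes, EcR, the ecdysone receptor, rose (log2 change 0.52, adjusted p = 0.0343), and Hr4 and the fat body gene Fbp1 fell (-1.70 and -4.87, adjusted p = 0.00411 and 1.7e-04), so that the used libraries of the genotypes also differed in these genes. In the order other cuticle families, chitin, tanning, apical matrix and ecdysone response, 8, 8, 7, 5 and 17 genes had an unadjusted p under 0.05 (22.4% of all genes), and DESeq2 called 5, 4, 3, 1 and 11 (8.09% of all genes). What part such differences have in the calls of Cpr64Aa, Cpr56F and Cpr47Ee was not tested.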

How the data were processed

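RNA-seq of whole wing discs gave 8 libraries, 4 per genotype. For each library the authors deposited a table of unnormalized read counts, which lists 17559 gene IDs. Its 5 special rows, which belong to no gene, were kept out of depths and tests: 0.955% to 1.91% of reads lay on no feature, 3.07% to 3.44% were ambiguous and 2.22% to 4.40% had no unique place. Per the labels' protocols, RNA was purified with a Monarch kit before library preparation with the ThruPLEX DNA-Seq Kit. Per the submitters' processing notes, FastQC, Trimmomatic 0.36, STAR and DESeq2 were used, with the build dm6. The counter, its strand option and its annotation version were not given in the sources used here, so counts of overlapping genes and near-identical copies are uncertain.

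Symbols matched 17253 IDs, and 306 have none here. Exon lengths and coordinates came from Ensembl release 115 on the same assembly. Counts were filtered (filterByExpr, minimum count 10, minimum total 15), scaled by TMM (factors 0.899 to 1.05) and tested with edgeR 4.0.16 in R 4.3.3 by the two-sided quasi-likelihood test, on all genes, with Benjamini-Hochberg adjustment and calls at an adjusted p under 0.05. DESeq2 1.42.0 was the other tool, and figures and summaries were made in Python 3.11.15. The steps were tested on simulated data. Ranges between libraries used CPM plus 0.5, a range of 8-fold and a level of 1 CPM as limits.

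Genes named were the 12 with the highest mean, the 8 widest and 5 narrowest ranges past the filter, every called gene and the 5 smallest p-values in each genotype comparison, with called list genes and a few stage genes; other genes given by name were chosen after their values were seen. The genes and lists were chosen with earlier results of these data known. Same-numbered libraries deviated together from their group means for numbers 1, 3 and 4 (correlations 0.463, 0.462 and 0.80). For number 2 the correlation was 0.108, lower than that of CRISPR 2 with wt 1 (0.38). The number was also fitted as a block, although the labels do not say what it marks. Besides, wt 2 and wt 3 each correlated with CRISPR 3, at 0.459 and 0.462. Other alternatives were size factors, no filter, another offset, no TMM factor, and leaving out libraries.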

Additional observations from a re-analysis of the deposited data

Results flagged for a closer look

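In 10 of 46 groups of 4 libraries (23 named genes in 2 genotypes), the highest or lowest library stood apart from the other 3 by Dixon's criterion. Chance meets it in about 1 in 20 independent groups, but 8 of these genes were named for their wide range between libraries and the genes share libraries, so the count was not set against that rate. Of these 10, 4 came from CRISPR 2, which was high for Lcp1 (109 CPM), Lcp2 (61.3 CPM), Lcp4 (110 CPM) and Lcp9 (11.5 CPM). The wt 1 library stood apart for 4 genes, low for Lcp1 (35.2 CPM) and Lcp4 (49.2 CPM) and high for Cpr47Ec (7.63 CPM) and Cpr47Eb (0.548 CPM). The remaining flags were Cpr49Ag, high in wt 4 (37.6 CPM), and Cpr47Ee, high in CRISPR 3 (0.990 CPM). Cpr47Ee had 46 reads there against 1 or 2 in each other CRISPR library.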

How the results depend on the processing

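Calls over the 8 libraries were 0 in edgeR with size factors, without the filter, with each library left out, without wt 4 and CRISPR 4, without wt 2, wt 3 and CRISPR 3, and with the replicate block. DESeq2 gave 1. Genes with an unadjusted edgeR p under 0.05 went from 4 of 38 to 10 of 38 with the block. They were 12 of 39 without CRISPR 2 and 2 to 5 with any other library left out. The share over all genes was not counted in those fits. Calls among the used libraries, 3, became 8 with DESeq2, 0 with the spread of all 8 libraries, 0 with wt 1 and wt 4 as controls, and 0 to 28 with a library left out. The interaction gave 2 calls with DESeq2 and 0 to 5 with a library left out. The count of genes ranging at least 8-fold was 15 with an offset of 0.1 CPM (3.65% of all genes) and 5 to 7 with a library left out, and that of genes with a mean of at least 1 CPM was 24 to 26. Of the log2 changes of single genes, those that changed sign were not called under the reported fit, and the cause was not tested. Over the 8 libraries, without wt 2, wt 3 and CRISPR 3, the reversed values were Cpr49Ac -0.32, Lcp1 0.0021, Cpr51A 0.44, Lcp2 0.18 and Cpr67Fa1 -0.025. With the replicate block Cpr78E became 0.063 and Cpr64Ad 0.061, and without wt 4 and CRISPR 4 they became 0.024 and 0.52. Among the used libraries, wt 1 and wt 4 as controls gave Cpr51A 0.74, Cpr47Ec -0.20, Cpr67Fa1 -0.14 and Cpr64Ad -0.18, and the spread of all 8 gave Cpr78Ca 0.043. With a library left out, ranges over the 8 libraries that crossed 0 were Cpr47Ec -2.01 to 0.92, Cpr49Ac -0.16 to 1.20, Cpr49Ag -0.40 to 0.10, Cpr49Ah -0.89 to 0.32, Cpr64Aa -0.090 to 0.35, Cpr64Ad -0.43 to 0.42 and Cpr78E -0.66 to 0.56. Among the used libraries they were Cpr12A -0.32 to 0.17, Cpr47Ec -0.0014 to 2.03, Cpr49Ag -1.35 to 0.27, Cpr49Ah -1.36 to 1.18, Cpr51A -0.26 to 0.034, Cpr64Ad -0.27 to 0.58, Cpr65Ec -0.66 to 0.30, Cpr67Fa1 -0.17 to 0.67, Cpr78Ca -0.38 to 0.49, Lcp1 -1.90 to 0.82, Lcp2 -1.91 to 0.90, Lcp4 -2.08 to 0.84 and Lcp9 -3.27 to 1.20. Alternatives that leave out more than 1 library, replace the controls or take the spread from all 8 were chosen after seeing the data. Depth limits the 49 genes under the filter of the 8-library fit. Without that filter 75 cuticle protein genes were tested over the 8 libraries.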

Other observations

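The tanning gene y (yellow), which is needed for black pigment in cuticle, was at 0.125, 0.0804, 0.0658 and 0.111 CPM in wt 1 to wt 4 and at 5.74, 1.07, 0.495 and 0.391 CPM in CRISPR 1 to CRISPR 4. Every CRISPR library was above every wt library. It was chosen after its values were seen. The log2 change over the 8 libraries was 4.29 (edgeR adjusted p = 0.299; DESeq2 adjusted p = 1.3e-04), and among the used libraries 5.42 (SE 1.07, edgeR adjusted p = 0.0859). The crosses differ in their parents as well as in the CRISPR transgene, and the genetic background cannot be told apart from genotype for y.

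Of 33 matched chitin genes, 25 had a mean of at least 1 CPM, against 26 of the 87 cuticle protein genes. CPM is not scaled to transcript length. Levels differed widely within the chitin list, where Idgf1 was at 0.0499 to 1.87 CPM and Hexo2 at 1.09 to 3.68 CPM. The chitin synthase gene kkv was at 162 to 311 CPM in wt and 162 to 344 CPM in CRISPR, and the chitin deacetylase genes serp and verm at 168 to 304 CPM and 339 to 561 CPM over the 8 libraries. The chitin-binding gene Gasp, listed with the other cuticle protein families, was at 136 to 232 CPM in wt and 140 to 268 CPM in CRISPR. The genes serp, verm and Gasp also stand in the list of tracheal markers. None of kkv, serp, verm and Gasp was called by edgeR in any comparison. DESeq2 called Gasp among the used libraries (adjusted p = 0.0206), where its log2 change in edgeR was 0.62 (edgeR adjusted p = 0.182).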
